A study of Homo sapiens with 18 samples.

Results

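Lysine tRNAs carry lysine to the ribosome, and the human genome holds many genes for them under both lysine anticodons, CTT and TTT. The lysine tRNA genes described here are the rows of the deposited small RNA table whose name starts with tRNA-Lys-, which gave 44 genes of 2462 features. Of the 44, 24 have the anticodon CTT and 20 the anticodon TTT, and the table holds 578 other tRNA genes. In these names the number after the anticodon is the isodecoder, a set of genes with 1 mature sequence, and the last number is the gene copy within it. A name with a chromosome in place of the isodecoder, such as CTT-chr15-5, belongs to a gene outside that numbering.

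The series holds small RNA libraries of HEK293T, a line derived from human embryonic kidney, and of the extracellular vesicles released by it. The cells were wild type, ATG7-/- (clone F2) or ATG12-/- (clone D9), all starved of serum for 24 h, and each of the 6 groups of cells or vesicles has 3 libraries that the labels call biological replicates. Each knockout is 1 clone, so the deleted gene and other differences of the clone cannot be told apart. The mRNAs of ATG7 and ATG12 are not analysed here, so the knockout labels were not checked against the genes they name. The question behind the series is whether the LC3-conjugation machinery decides which RNAs leave the cell in vesicles.

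ATG7 is the enzyme that activates LC3 and ATG12, and ATG12 is part of the complex that completes the attachment of LC3 to membrane lipids. The CTT anticodon reads the lysine codon AAG, and the TTT anticodon reads mainly AAA through a wobble uridine that Elongator and other enzymes modify. tRNA genes are transcribed by RNA polymerase III from promoter elements inside the gene. Reads of small RNA libraries on a tRNA gene can come from the whole tRNA or from its fragments, which are common in extracellular vesicles.

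By symbol, 35 of the 44 genes were matched to RefSeq entries (GRCh38.p14), of which 27 are classed as tRNA and 8 as pseudogene. Of the matched genes 25 lie outside annotated genes, 9 in introns and 1 in an exon. Of them 33 are 73 bases long, so levels of these 33 genes can be compared without correction for length. The 9 genes without a match, among them CTT-11-1, have no class, place or length here. CTT-1-1 lies in an intron of ARMH4 (chr14:58239895-58239967) and CTT-1-2 in an intron of MORF4L1 (chr15:78860562-78860634). Chromosome 16 holds 6 of the matched CTT genes, among them CTT-2-5 (chr16:3175691-3175763), CTT-4-1 (chr16:3191501-3191573) and CTT-3-1. TTT-3-1 (chr1:204506527-204506599) and TTT-3-2 (chr1:204507030-204507102) are neighbours, and TTT-7-1 lies outside annotated genes on chromosome 6 (chr6:28747744-28747816). TTT-14-1 (chr14:73588825-73588897) is classed as a pseudogene. The mature-length sequence is shown only for CTT-3-1, the 1 matched gene in an exon, because a transcript that covers it gives its sequence. This gene was called in wild type vesicles, in ATG7-/- vesicles and in ATG7-/- cells. It lies in the exon of the long noncoding RNA AC108134.2 (GRCh38, chr16:3157405-3157477, minus strand), from whose GENCODE transcript it was read, and the capitals mark the anticodon, bases 34 to 36.
CTT-3-1: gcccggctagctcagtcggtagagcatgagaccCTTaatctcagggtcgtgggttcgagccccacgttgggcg

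Values are normalised reads, the reads of a feature divided by 1 size factor per library. Cell libraries held 1188388 to 1804089 reads on features and vesicle libraries 1881080 to 3382605, and 1 read was worth 0.477 to 1.89 normalised reads. How reads that match several gene copies were counted is not given in the sources used here, so copies of 1 isodecoder may hold the same reads and are not independent. The scaling bears on every direction below. When libraries were scaled by their totals in place of the deposited size factors, the median of all features moved by -1.51 (log2) for wild type vesicles against cells, by -0.37 and -0.35 for ATG7-/- and ATG12-/- against wild type vesicles, by 0.02 between the knockout vesicles, and by 0.09 and 0.23 for ATG7-/- and ATG12-/- against wild type cells. Ratios within a library do not depend on it. Serum and blood microRNAs, a sign of RNA carried over from serum, were summed over the 5 of 6 listed that the table holds. The sum was 89.0 to 129 normalised reads in wild type, 167 to 260 in ATG7-/- and 243 to 323 in ATG12-/- vesicles, against 1.27 to 11.4 in cells, where 2 of the 5 were at 0 in each group. The sum thus moved with the knockouts in vesicles, and its part in the vesicle results was not tested.

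The genes differed widely in level. Of the 44 genes 30 passed the filter of at least 10 normalised reads in 3 of the 18 libraries, 16 CTT and 14 TTT, and they held 99.9% of all lysine tRNA reads. Of the 9 vesicle libraries alone, 15 CTT and 13 TTT genes passed, because CTT-14-1 and TTT-8-1 reached the filter through the cells. The other 14 genes, 8 CTT and 6 TTT, never exceeded 11.9 normalised reads, the value of CTT-8-1 in 1 library, and CTT-15-1 had 1 read in all 18 libraries together. Among CTT genes the isodecoders CTT-1, CTT-2, CTT-4 and CTT-3 were the most abundant, and among TTT genes TTT-3, TTT-4, TTT-7 and TTT-6.

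**Figure D1:**
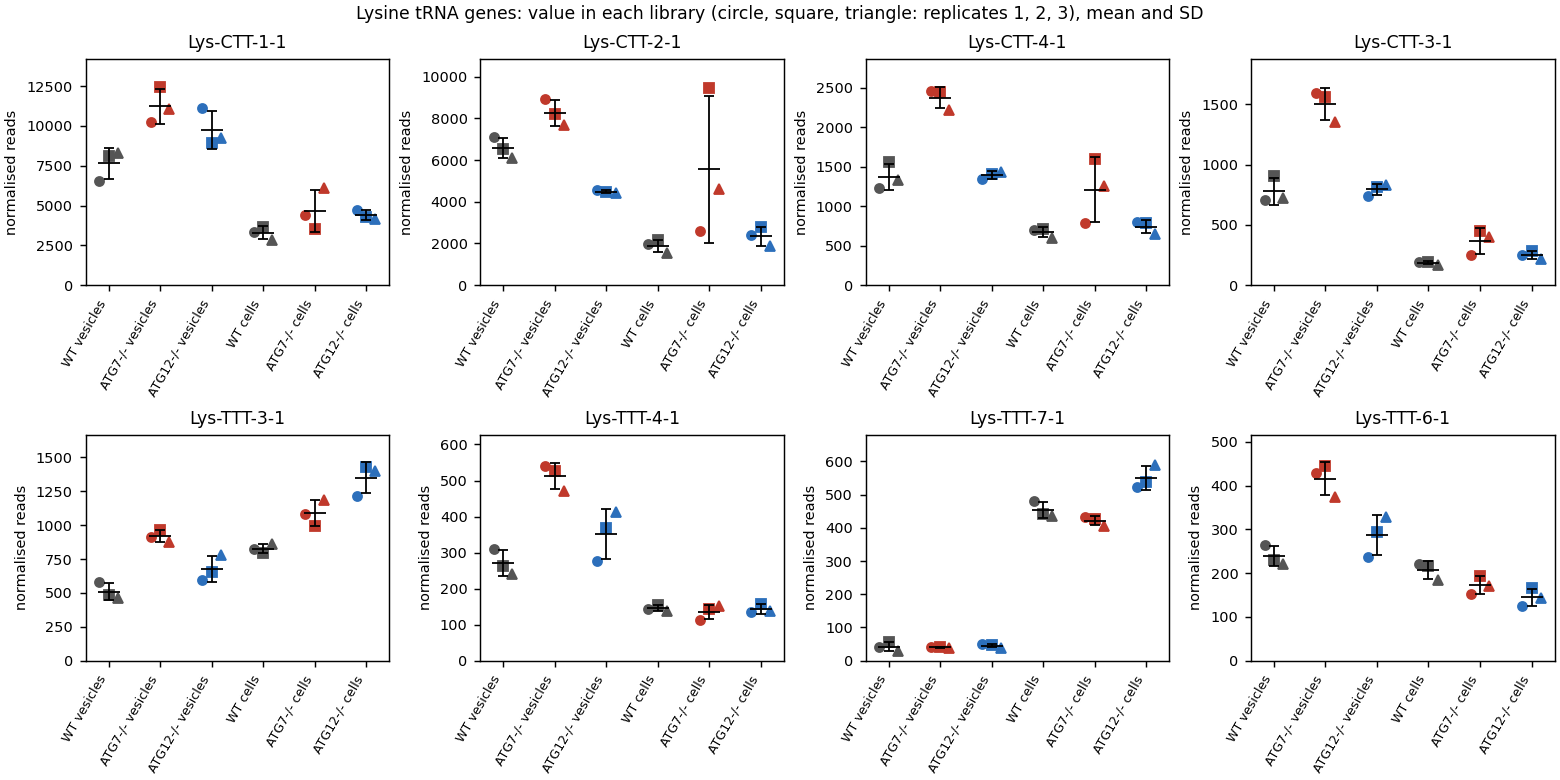
Normalised reads (y axis, linear, from 0) of the first copy of the 4 most abundant isodecoders of each anticodon in all 18 libraries, by group; symbols are replicates, bars the mean and SD of 3. CTT-1-1, CTT-2-1 and CTT-3-1 are higher in wild type vesicles than in wild type cells, TTT-7-1 lies at 30.6 to 56.7 in vesicles and 406 to 590 in cells, and CTT-2-1 spreads from 2579 to 9458 in ATG7-/- cells.

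Wild type vesicles were compared with the cells that released them. With the deposited scaling, all 16 tested CTT genes changed, 13 higher and 3 lower in vesicles, while of the 14 TTT genes 3 were higher, 6 lower and 5 not called. The 13 higher CTT genes include the 2 copies of CTT-1 and the 5 copies of CTT-2, which are not independent. Over both anticodons 16 of 30 genes were higher and 9 lower, and of all 905 features tested 38.9% were called higher and 42.9% lower. Among other tRNA genes 239 of 459 were higher and 139 lower. In a count added after the data were seen, without CTT-14-1 and TTT-8-1, both lower and both tested through the cells alone, 13 of 15 CTT genes were higher and 2 lower, and 3 of 13 TTT genes were higher and 5 lower. With library totals 4 CTT genes were higher and 4 lower, and 1 TTT gene was higher and 13 lower. The median log2 fold change was 1.59 for CTT genes and -0.15 for TTT genes, against 0.51 for other tRNA genes and -0.13 for all features. With library totals these medians were 0.07, -1.65, -0.94 and -1.57, in the same order. Groups did not overlap for 27 of the 30 genes, against 83.8% of all features.

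CTT-1-1, the most abundant CTT gene, measured 6516, 8120 and 8317 normalised reads in wild type vesicles, against 3357, 3661 and 2853 in wild type cells. Every vesicle library was above every cell library, with a log2 fold change of 1.22 (SE 0.17, adjusted p = 1.49e-06) that became -0.30 with library totals. CTT-2-1 measured 7089, 6509 and 6110 in vesicles and 1949, 2147 and 1543 in cells, a log2 fold change of 1.82 (SE 0.28, adjusted p = 3.83e-06) and 0.30 with library totals, where it was not called. CTT-4-1 measured 1229, 1554 and 1332 in vesicles and 703, 707 and 594 in cells, a log2 fold change of 1.03 (SE 0.18, adjusted p = 2.54e-05) that turned to -0.48 with library totals. The 4 abundant CTT isodecoders thus did not share 1 fold, and CTT-3-1, whose sequence is given above, was at the upper end. It measured 707, 908 and 722 in vesicles and 189, 196 and 171 in cells, a log2 fold change of 2.06 (SE 0.18, adjusted p = 5.24e-10). The highest fold of any lysine tRNA gene in this comparison was that of CTT-11-1, at 1116, 733 and 728 in vesicles and 108, 103 and 72.3 in cells, with a log2 fold change of 3.17 (SE 0.28, adjusted p = 6.12e-10). At the other end, CTT-5-1, a minor gene of chromosome 16, measured 26.0, 26.3 and 26.3 in vesicles and 45.9, 62.0 and 46.0 in cells, a log2 fold change of -0.93 (SE 0.26, adjusted p = 0.0023).

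The TTT genes went in both directions. TTT-7-1 was the lysine tRNA gene with the lowest fold: it measured 40.5, 56.7 and 30.6 normalised reads in wild type vesicles, against 481, 443 and 435 in wild type cells, a log2 fold change of -3.42 (SE 0.18, adjusted p = 4.65e-14). No vesicle library came near a cell library. With each isodecoder counted once, TTT-7 made up 22.4% of the TTT reads of wild type cells and 2.73% of those of wild type vesicles. TTT-14-1, the gene classed as a pseudogene, went the other way, with 152, 138 and 124 normalised reads in vesicles and 24.2, 19.1 and 16.8 in cells. Its log2 fold change was 2.73 (SE 0.19, adjusted p = 1.65e-11), and TTT-14 made up 8.85% of the TTT reads in wild type vesicles, against 0.99% in wild type cells. TTT-4-1 measured 309, 263 and 241 in vesicles and 145, 155 and 138 in cells, a log2 fold change of 0.88 (SE 0.16, adjusted p = 3.56e-05) that turned to -0.63 with library totals. TTT-6-1, with 265, 231 and 222 in vesicles and 222, 216 and 185 in cells, was not called (0.20, SE 0.16, adjusted p = 0.239), but was lower with library totals (-1.31, adjusted p = 4.5e-08). TTT-1-1 was not called either (0.44, SE 0.21, adjusted p = 0.0641). It was higher with TMM (0.50, adjusted p = 0.0425), edgeR (0.50, adjusted p = 0.0308) and DESeq2 (0.47, adjusted p = 0.0446) and lower with library totals (-1.07, adjusted p = 0.000122). TTT-5-1, named after its values were seen, measured 85.3, 104 and 96.3 in vesicles and 258, 294 and 266 in cells (-1.51, SE 0.18, adjusted p = 6.19e-08).

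**Figure D2:**
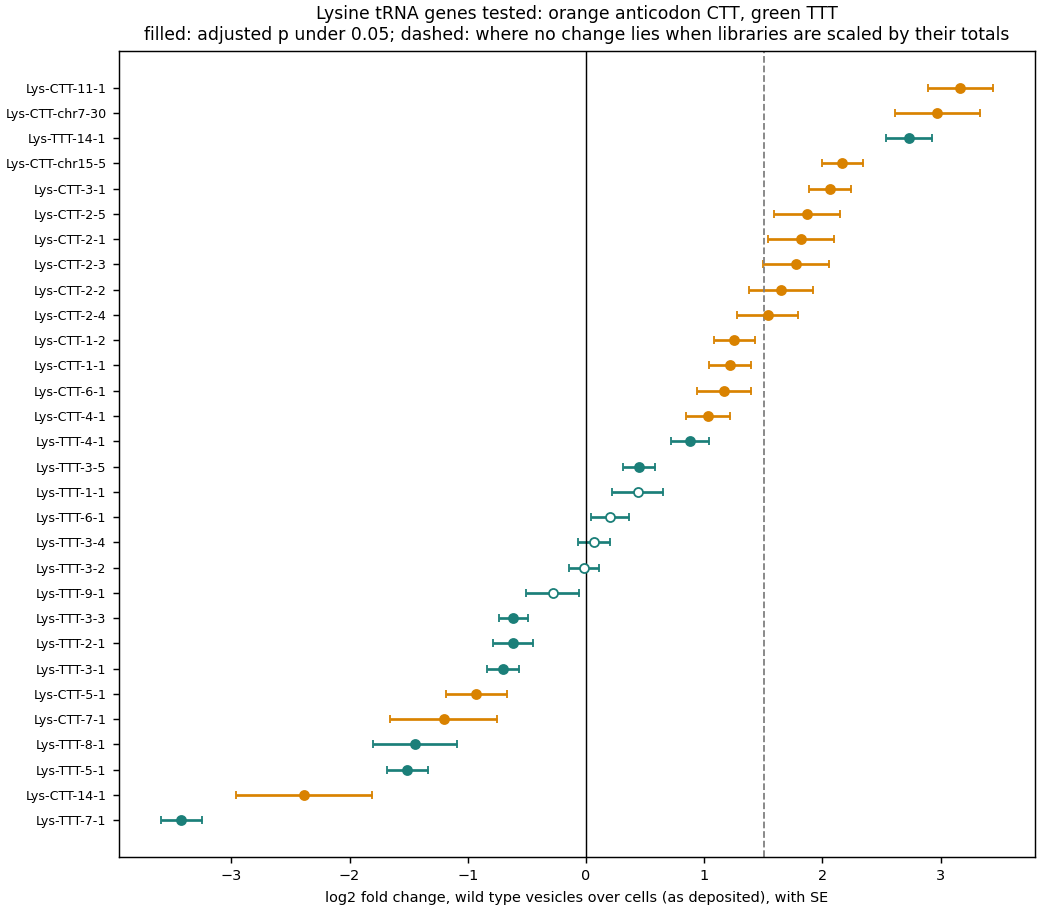
Log2 fold change with SE of wild type vesicles over wild type cells (x axis) for the 30 tested lysine tRNA genes (y axis, ordered by fold); orange is anticodon CTT, green TTT, and filled points passed an adjusted p of 0.05. The dashed line marks the place of no change under library totals, so genes between it and 0 turn direction; CTT-11-1 at 3.17 and TTT-7-1 at -3.42 lie outside that range.

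The balance between the anticodons was then taken within each library, where no scaling enters. Reads on CTT genes outnumbered reads on TTT genes in every library, and more so in wild type vesicles than in wild type cells. The ratio of CTT to TTT reads was 13.9, 15.7 and 16.2 in wild type vesicles, against 4.34, 4.61 and 3.59 in wild type cells. The groups did not overlap, and the difference of mean log2 ratios was 1.87. In ATG7-/- vesicles the ratio was 11.3, 11.1 and 11.1, and in ATG12-/- vesicles 12.8, 9.86 and 8.73, all below the wild type vesicles. The differences from wild type were -0.45 and -0.56 on the log2 scale. With each isodecoder counted once the ratio was 10.3, 12.1 and 12.5 in wild type vesicles and 9.0, 9.42 and 9.36 in ATG7-/- vesicles, still wholly below (-0.32). In ATG12-/- vesicles it was then 11.7, 8.45 and 7.75 and overlapped wild type (-0.34, exact permutation p = 0.2). With all genes counted, each of these 3 differences gave p = 0.1 in a two-sided exact permutation test, the smallest p that 3 against 3 libraries allow, and 0.15 after Benjamini-Hochberg adjustment over 6 comparisons. The vesicles of the knockouts overlapped each other (difference -0.11, exact permutation p = 0.7, adjusted 0.7), and without ATG12-/- vesicle replicate 3 that difference was 0.0064. With each isodecoder counted once it was -0.016. In cells the ratio was 5.73, 13.5 and 8.54 in ATG7-/- and 4.92, 4.84 and 4.02 in ATG12-/-. The ATG7-/- cells lay wholly above the wild type cells (1.07, exact permutation p = 0.1, adjusted 0.15), and without ATG7-/- cell replicate 2 the difference was 0.75. ATG12-/- cells overlapped wild type cells (0.14, exact permutation p = 0.5, adjusted 0.6). With each isodecoder counted once the ATG12-/- cells lay wholly above too, at 4.30, 3.94 and 3.49 against 3.29, 3.44 and 2.83 (0.29, exact permutation p = 0.1).

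**Figure D3:**
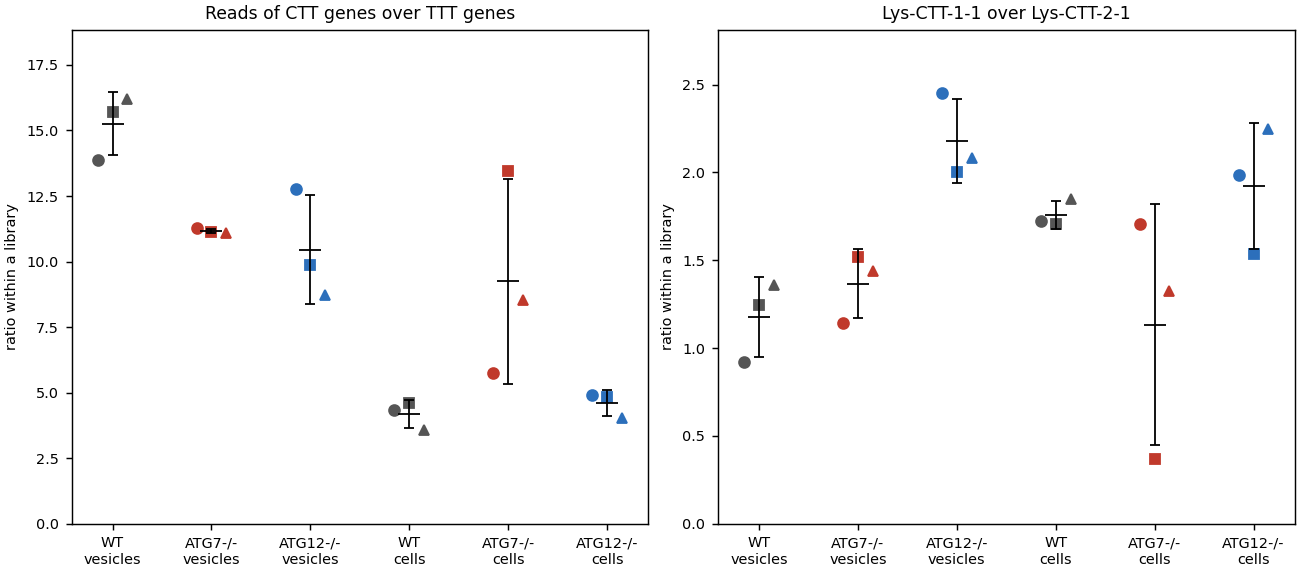
Left, reads of all CTT genes over reads of all TTT genes in each library (y axis, ratio); right, CTT-1-1 over CTT-2-1. Symbols are replicates, bars the mean and SD of 3: the left ratio is 13.9 to 16.2 in wild type vesicles and 3.59 to 4.61 in wild type cells, and ATG7-/- cells spread from 5.73 to 13.5.

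Lysine tRNAs took a smaller share of the tRNA reads in vesicles than in cells. They made up 4.09%, 3.62% and 3.75% of tRNA reads in wild type vesicles, against 9.23%, 9.23% and 8.48% in wild type cells, a difference of means of -5.16 percentage points. In ATG7-/- vesicles the share was 2.44%, 2.56% and 2.59% and in ATG12-/- vesicles 2.47%, 2.21% and 2.20%, both wholly below wild type (differences -1.29 and -1.52). The share fell in vesicles of both knockouts, and it has all tRNA reads in its denominator. The lysine reads themselves did not move alike in the 2 knockouts. With the deposited scaling, CTT genes summed to a mean of 51785 normalised reads in wild type, 70047 in ATG7-/- and 45701 in ATG12-/- vesicles. TTT genes summed to 3411, 6275 and 4456 in the same order. Of all reads in a library, lysine tRNA genes held a mean of 1.90%, 2.02% and 1.35%. In cells the share was 11.7%, 23.5% and 16.1% in ATG7-/- and 9.91%, 10.8% and 9.26% in ATG12-/- (differences 8.09 and 1.02). Each of these 5 differences gave the smallest exact permutation p of 0.1 (0.12 adjusted over 6 comparisons). Without ATG7-/- cell replicate 2 the difference in ATG7-/- cells was 4.90, and without ATG12-/- cell replicate 2 that in ATG12-/- cells was 0.606. The knockout vesicles overlapped each other (-0.231, exact permutation p = 0.2, adjusted 0.2), with a difference of -0.107 when each isodecoder was counted once. Counted so, the mean share was 12.3% in ATG7-/- cells and 7.19% in wild type cells, a difference of 5.15 percentage points.

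Copies of 1 isodecoder held nearly the same values in vesicles and less similar values in cells. The ratio of the highest to the lowest copy is a description here, with no test. For the 2 copies of CTT-1 it was 1.005 to 1.009 over the 9 vesicle libraries and 1.01 to 1.04 over the 9 cell libraries, and for the 5 copies of CTT-2 it was 1.01 to 1.03 in vesicles and 1.05 to 1.30 in cells. The 5 copies of TTT-3 stood apart, with 1.09 to 1.22 in vesicles and 2.37 to 4.90 in cells, and TTT-3-1 was the highest copy in all 18 libraries. In wild type cells TTT-3-1 measured 824, 795 and 862 normalised reads and TTT-3-5, on chromosome 17, 322, 335 and 291. In wild type vesicles the same copies measured 581, 483 and 465, and 477, 429 and 390. A gene-by-gene reading of TTT-3 therefore gave opposite directions for vesicles against cells: -0.70 (SE 0.13, adjusted p = 5.82e-05) for TTT-3-1 and 0.45 (SE 0.13, adjusted p = 0.00403) for TTT-3-5, the latter -1.07 with library totals. The mean ratio of TTT-3 copies in cells was 2.63 in wild type, 3.48 in ATG7-/- and 4.47 in ATG12-/-. Among 53 other tRNA isodecoders with several copies the median ratio was 1.04 in vesicles and 1.30 in cells, 40 of the 53 were higher in cells, and 3 reached the mean of 3.53 that TTT-3 had in cells.

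**Figure D4:**
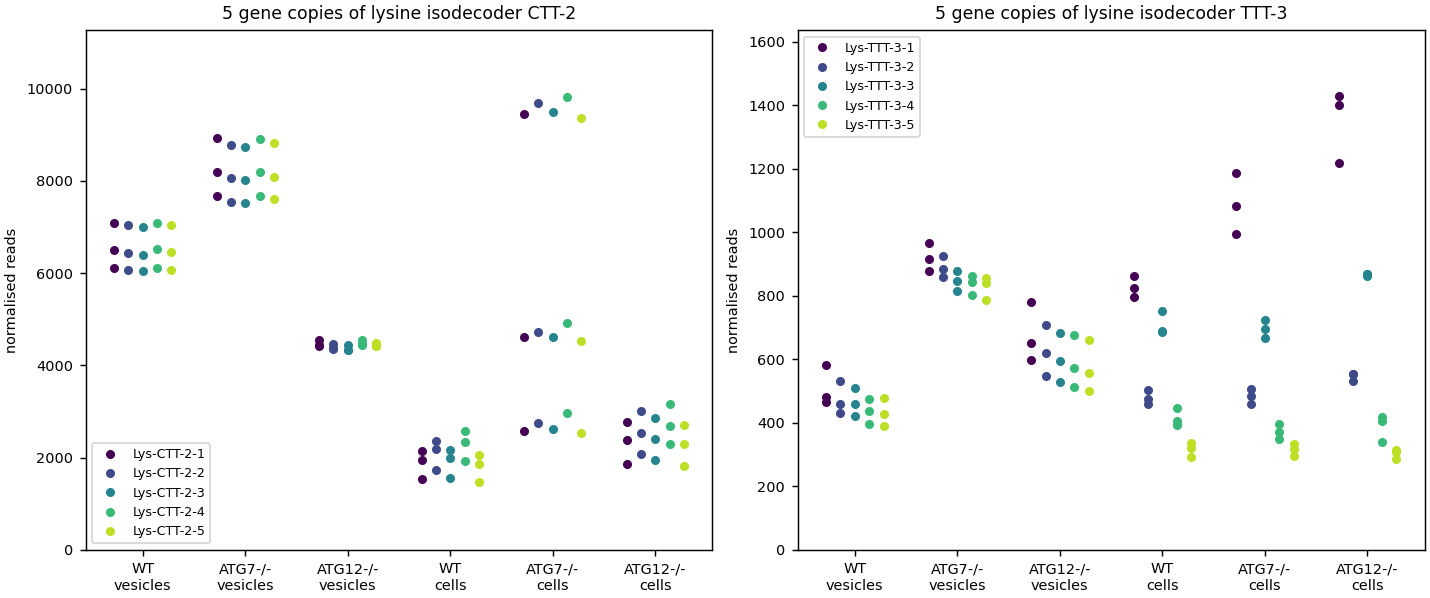
Normalised reads (y axis, linear, from 0) of the 5 gene copies of CTT-2 (left) and TTT-3 (right) in the 3 libraries of each group; colours are copies. CTT-2 copies differ by at most 1.30 times in any library, while in cells TTT-3-1 is 2.37 to 4.90 times the lowest TTT-3 copy and in vesicles 1.09 to 1.22 times.

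ATG7-/- vesicles were compared with wild type vesicles. With the deposited scaling lysine tRNA genes rose in ATG7-/- vesicles under both anticodons: 13 of 15 tested CTT genes and 11 of 13 TTT genes were higher. The copies of CTT-1, CTT-2 and TTT-3 made up 12 of these 24. None was called lower by limma, at an unadjusted p under 0.05, by edgeR or by DESeq2. Of all 850 features 33.5% were higher and 28.9% lower, and groups did not overlap for 25 of 28 lysine genes against 68% of all features. Among other tRNA genes 217 of 439 were higher and 6 lower. The median log2 fold change was 0.54 for CTT, 0.91 for TTT, 0.46 for other tRNA genes and 0.11 for all features. With library totals 4 CTT and 10 TTT genes were higher, none lower, and the medians were 0.16 for CTT and 0.53 for TTT. They were then 0.08 for other tRNA genes and -0.25 for all features. With TMM scaling or edgeR 7 CTT and 10 TTT genes were higher.

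The folds of 5 named TTT genes lay between 0.80 and 1.08. TTT-3-1 measured 915, 967 and 877 normalised reads in ATG7-/- vesicles against 581, 483 and 465 in wild type, a log2 fold change of 0.86 (SE 0.14, adjusted p = 0.000112). TTT-4-1 measured 539, 527 and 472 against 309, 263 and 241 (0.92, SE 0.16, adjusted p = 0.000257), and TTT-6-1 429, 445 and 374 against 265, 231 and 222 (0.80, SE 0.15, adjusted p = 0.000492). In all 3 genes every knockout library was above every wild type library. TTT-1-1, in an intron of ZFHX3, had the highest fold, with 261, 245 and 233 against 132, 109 and 109 (1.08, SE 0.16, adjusted p = 7.4e-05). TTT-14-1 measured 278, 290 and 281 against 152, 138 and 124 (1.04, SE 0.16, adjusted p = 6.45e-05). TTT-7-1, the gene that was low in vesicles, measured 42.2, 40.9 and 37.1 against 40.5, 56.7 and 30.6 and was not called (-0.04, SE 0.24, adjusted p = 0.887).

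The CTT genes spread more. CTT-3-1 measured 1594, 1558 and 1353 normalised reads in ATG7-/- vesicles against 707, 908 and 722 in wild type (0.95, SE 0.13, adjusted p = 2.71e-05). CTT-4-1 measured 2455, 2445 and 2220 against 1229, 1554 and 1332 (0.80, SE 0.12, adjusted p = 4.53e-05), and CTT-1-1 10225, 12434 and 11059 against 6516, 8120 and 8317 (0.56, SE 0.13, adjusted p = 0.00181). All 3 were wholly above wild type, and CTT-1-1 lost its call with library totals (0.18, adjusted p = 0.362). The abundant CTT-2-1 moved least of the 4, from 7089, 6509 and 6110 to 8933, 8198 and 7684 (0.33, SE 0.10, adjusted p = 0.0103). Its call ended without ATG7-/- vesicle replicate 1 (0.28, adjusted p = 0.0577), with TMM (0.21, adjusted p = 0.12) and with edgeR (0.20, adjusted p = 0.139), and its direction turned with library totals (-0.044). CTT-11-1 measured 1274, 1154 and 1236 against 1116, 733 and 728 (0.54, SE 0.15, adjusted p = 0.00831). Its call ended with library totals (0.16, adjusted p = 0.395), TMM (0.41, adjusted p = 0.0706) and edgeR (0.36, adjusted p = 0.112). CTT-5-1 was not called (-0.09, SE 0.22, adjusted p = 0.743).

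ATG12-/- vesicles were compared with wild type vesicles. Of 15 CTT genes 3 were higher and 5 lower, and of 13 TTT genes 8 were higher and none lower in the limma test, where 1 was lower at an unadjusted p under 0.05 and none by edgeR or DESeq2. The 5 lower CTT genes were the 5 copies of CTT-2, which are 1 mature sequence. Of the 8 higher TTT genes 5 were the copies of TTT-3, beside TTT-1-1, TTT-2-1 and TTT-14-1, and the 3 higher CTT genes were both copies of CTT-1 and CTT-chr15-5. The difference between the anticodons was not tested gene by gene. Of all 850 features 22.6% were higher and 21.1% lower, and groups did not overlap for 17 of 28 lysine genes against 52.7% of all features. Among other tRNA genes 122 of 439 were higher and 35 lower. The median log2 fold change was -0.11 for CTT, 0.40 for TTT, 0.15 for other tRNA genes and 0.05 for all features. With library totals none was higher and 7 CTT and 2 TTT genes were lower, with medians of -0.47 and 0.04. The medians were then -0.19 for other tRNA genes and -0.30 for all features. The 11 higher calls became 1 without ATG12-/- vesicle replicate 3, 4 without ATG12-/- vesicle replicate 2, 4 without wild type vesicle replicate 3 and 5 without wild type vesicle replicate 2, while the 5 lower calls were 5 or 6 without any 1 library. With the replicate number as a block in the fit, the higher calls were 3.

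CTT-2-1 measured 4549, 4453 and 4429 normalised reads in ATG12-/- vesicles against 7089, 6509 and 6110 in wild type, wholly below (-0.55, SE 0.10, adjusted p = 0.000619). CTT-2-3 had the lowest fold of the copies (-0.57, SE 0.10, adjusted p = 0.000509). CTT-1-1 went the other way, with 11145, 8929 and 9222 against 6516, 8120 and 8317 (0.35, SE 0.13, adjusted p = 0.0381). That call did not hold with library totals (-0.0028), with DESeq2 (0.29, adjusted p = 0.0733) or without ATG12-/- vesicle replicate 1 (0.25, adjusted p = 0.178), ATG12-/- vesicle replicate 3 (0.39, adjusted p = 0.0618) or wild type vesicle replicate 1 (0.24, adjusted p = 0.092). CTT-4-1, at 1342, 1414 and 1437 against 1229, 1554 and 1332, was not called (0.03, SE 0.12, adjusted p = 0.83), nor was CTT-3-1, at 743, 814 and 830 against 707, 908 and 722 (0.04, SE 0.13, adjusted p = 0.827). Both overlapped wild type. Of the TTT genes TTT-14-1 had the highest fold, with 190, 227 and 270 against 152, 138 and 124 (0.72, SE 0.16, adjusted p = 0.0022), a call that held without any 1 library but ended with library totals (0.36, adjusted p = 0.0607). TTT-3-1 measured 597, 652 and 781 against 581, 483 and 465 (0.41, SE 0.14, adjusted p = 0.0281), and its call ended without ATG12-/- vesicle replicate 3 (0.30, adjusted p = 0.143), ATG12-/- vesicle replicate 2 (adjusted p = 0.0629), wild type vesicle replicate 3 (adjusted p = 0.108) or wild type vesicle replicate 2 (adjusted p = 0.0769). TTT-1-1 was called higher (0.50, SE 0.16, adjusted p = 0.0243), also not without the same 4 libraries, where its adjusted p was 0.0719 to 0.114. TTT-4-1 (0.37, adjusted p = 0.0876), TTT-6-1 (0.25, adjusted p = 0.207) and TTT-7-1 (0.12, adjusted p = 0.696) were not called, though TTT-4-1 was without ATG12-/- vesicle replicate 1 (0.53, adjusted p = 0.0201) or wild type vesicle replicate 1 (0.47, adjusted p = 0.0269).

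The vesicles of both knockouts were compared directly. Lysine tRNA genes were lower in ATG12-/- than in ATG7-/- vesicles for 10 of 15 CTT and 10 of 13 TTT genes. Copies of CTT-2 and of TTT-3 are among these genes and are not independent. None was higher by limma, at an unadjusted p under 0.05, by edgeR or by DESeq2. Of all 850 features 26.6% were higher and 23.3% lower, and groups did not overlap for 23 of 28 lysine genes against 58.7% of all features. Among other tRNA genes 168 of 439 were lower and 11 higher. The median log2 difference was -0.65 for CTT, -0.52 for TTT and -0.25 for other tRNA genes, against 0.003 for all features, and with library totals -0.62, -0.50 and -0.23. CTT-3-1 (-0.91, SE 0.13, adjusted p = 0.000109), CTT-2-1 (-0.88, SE 0.10, adjusted p = 2.06e-05) and CTT-4-1 (-0.76, SE 0.12, adjusted p = 0.000168) were all lower, whereas CTT-1-1 was not called (-0.21, SE 0.13, adjusted p = 0.208). TTT-4-1 was lower by -0.56 (SE 0.16, adjusted p = 0.013) and TTT-3-1 by -0.45 (SE 0.14, adjusted p = 0.0155). Without ATG12-/- vesicle replicate 1 TTT-4-1 (adjusted p = 0.0693) and TTT-3-1 (adjusted p = 0.0782) lost their calls, and TTT-3-1 also without ATG12-/- vesicle replicate 2 (adjusted p = 0.0602). With TMM and edgeR 5 and 4 TTT genes were lower in place of 10, and TTT-4-1 (adjusted p 0.0635 and 0.0682) and TTT-3-1 (adjusted p 0.104 and 0.109) were not among them. TTT-7-1 (0.17, adjusted p = 0.618) and TTT-14-1 (-0.32, adjusted p = 0.112) were not called.

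ATG7-/- cells were compared with wild type cells. Of 16 tested CTT genes 9 were higher and 1 lower in ATG7-/- cells, and 5 of the 9 were the copies of CTT-2. None of 14 TTT genes was called by limma, where 1 was higher and 1 lower at an unadjusted p under 0.05, while edgeR and DESeq2 each called 1 higher. That gene, TTT-3-1, was called higher with library totals (0.48, adjusted p = 0.0404), TMM (0.44, adjusted p = 0.0414), edgeR (0.45, adjusted p = 0.0418), DESeq2 (0.48, adjusted p = 0.00306) and without ATG7-/- cell replicate 2 (0.46, adjusted p = 0.0441). The 9 higher lysine genes became 12 with edgeR and 13 with DESeq2. Of all 853 features 8.44% were higher and 8.32% lower, and groups did not overlap for 14 of 30 lysine genes against 35.2% of all features. Among other tRNA genes 20 of 427 were higher and 54 lower. The median log2 fold change was 0.99 for CTT, -0.08 for TTT, -0.18 for other tRNA genes and -0.09 for all features. CTT medians with library totals and TMM were 1.08 and 1.04. The ATG7-/- cell libraries differed among themselves: the CTT-2 copies stood 1.45 (log2) above the other libraries of the group in replicate 2 and 1.34 below them in replicate 1, where the median of other tRNA genes in replicate 2 was -0.04. Without ATG7-/- cell replicate 2 the genes called higher were 11 and those called lower 2. Without wild type cell replicate 3 they were 3 and 0, the 5 copies of CTT-2 and CTT-4-1 losing their calls.

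CTT-2-1 measured 2579, 9458 and 4617 normalised reads in ATG7-/- cells and 1949, 2147 and 1543 in wild type cells. The groups did not overlap although the lowest knockout library was near the highest wild type one, and the log2 fold change was 1.37 (SE 0.34, adjusted p = 0.0157). It was 0.89 (adjusted p = 0.0228) without ATG7-/- cell replicate 2 and 1.24 (adjusted p = 0.075) without wild type cell replicate 3. CTT-11-1 had the highest fold, with 152, 440 and 381 against 108, 103 and 72.3 (1.65, SE 0.32, adjusted p = 0.0037). CTT-3-1 measured 246, 452 and 398 against 189, 196 and 171 (0.93, SE 0.20, adjusted p = 0.00748), wholly above wild type. CTT-4-1 measured 782, 1593 and 1255 against 703, 707 and 594 (0.80, SE 0.21, adjusted p = 0.0225), and its call ended without any 1 of ATG7-/- replicates 2 and 3 or wild type replicates 2 and 3 (adjusted p 0.0567 to 0.0897). CTT-1-1, at 4405, 3506 and 6112 against 3357, 3661 and 2853, overlapped wild type and was not called (0.48, SE 0.19, adjusted p = 0.0988), though it was without ATG7-/- cell replicate 2 (0.66, adjusted p = 0.0214) and with DESeq2 (0.60, adjusted p = 0.0208). CTT-5-1 was the 1 gene called lower, at 15.6, 40.9 and 25.0 against 45.9, 62.0 and 46.0 (-0.98, SE 0.27, adjusted p = 0.0271), a call that remained without ATG7-/- cell replicate 2 and ended without each of the other 5 libraries (adjusted p 0.0518 to 0.12), with library totals (adjusted p = 0.0587) and with edgeR (adjusted p = 0.0514).

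ATG12-/- cells were compared with wild type cells. The cells of the knockouts were not compared with each other. Of 16 CTT genes 2 were higher and none lower by limma, at an unadjusted p under 0.05, by edgeR or by DESeq2, and of 14 TTT genes 1 was higher and 1 lower. Of all 853 features 7.5% were higher and 18.2% lower, and groups did not overlap for 14 of 30 lysine genes against 48.5% of all features. Among other tRNA genes 44 of 427 were higher and 55 lower. The count of higher genes rose from 3 to 7 with TMM or edgeR, 8 with library totals and 9 with DESeq2. TTT-3-1 measured 1218, 1430 and 1401 normalised reads against 824, 795 and 862 in wild type cells, wholly above (0.70, SE 0.13, adjusted p = 0.00286), while its sister copy TTT-3-5 was not called (-0.06, SE 0.13, adjusted p = 0.768). TTT-6-1 measured 125, 166 and 143 against 222, 216 and 185, wholly below (-0.52, SE 0.15, adjusted p = 0.0246), and was not called with library totals, TMM, edgeR or DESeq2 (adjusted p 0.0979 to 0.24) or without ATG12-/- cell replicates 1 or 3 or wild type cell replicates 1 or 2 (adjusted p 0.0646 to 0.0993). CTT-11-1 measured 194, 228 and 148 against 108, 103 and 72.3 (1.00, SE 0.32, adjusted p = 0.0353), a call that held without ATG12-/- cell replicate 3 and ended without each of the other 5 libraries (adjusted p 0.0645 to 0.141). CTT-1-1 (0.42, adjusted p = 0.111) and CTT-2-1 (0.31, adjusted p = 0.526) were not called, though CTT-1-1 was with library totals, TMM, edgeR and DESeq2 (0.57 to 0.65, adjusted p 0.0255 to 0.0440). TTT-7-1, at 521, 539 and 590 against 481, 443 and 435, did not overlap wild type but was not called (0.28, SE 0.12, adjusted p = 0.117). With library totals, TMM, edgeR and DESeq2 it was called higher (0.42 to 0.51, adjusted p 0.00282 to 0.0237).

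**Figure D5:**
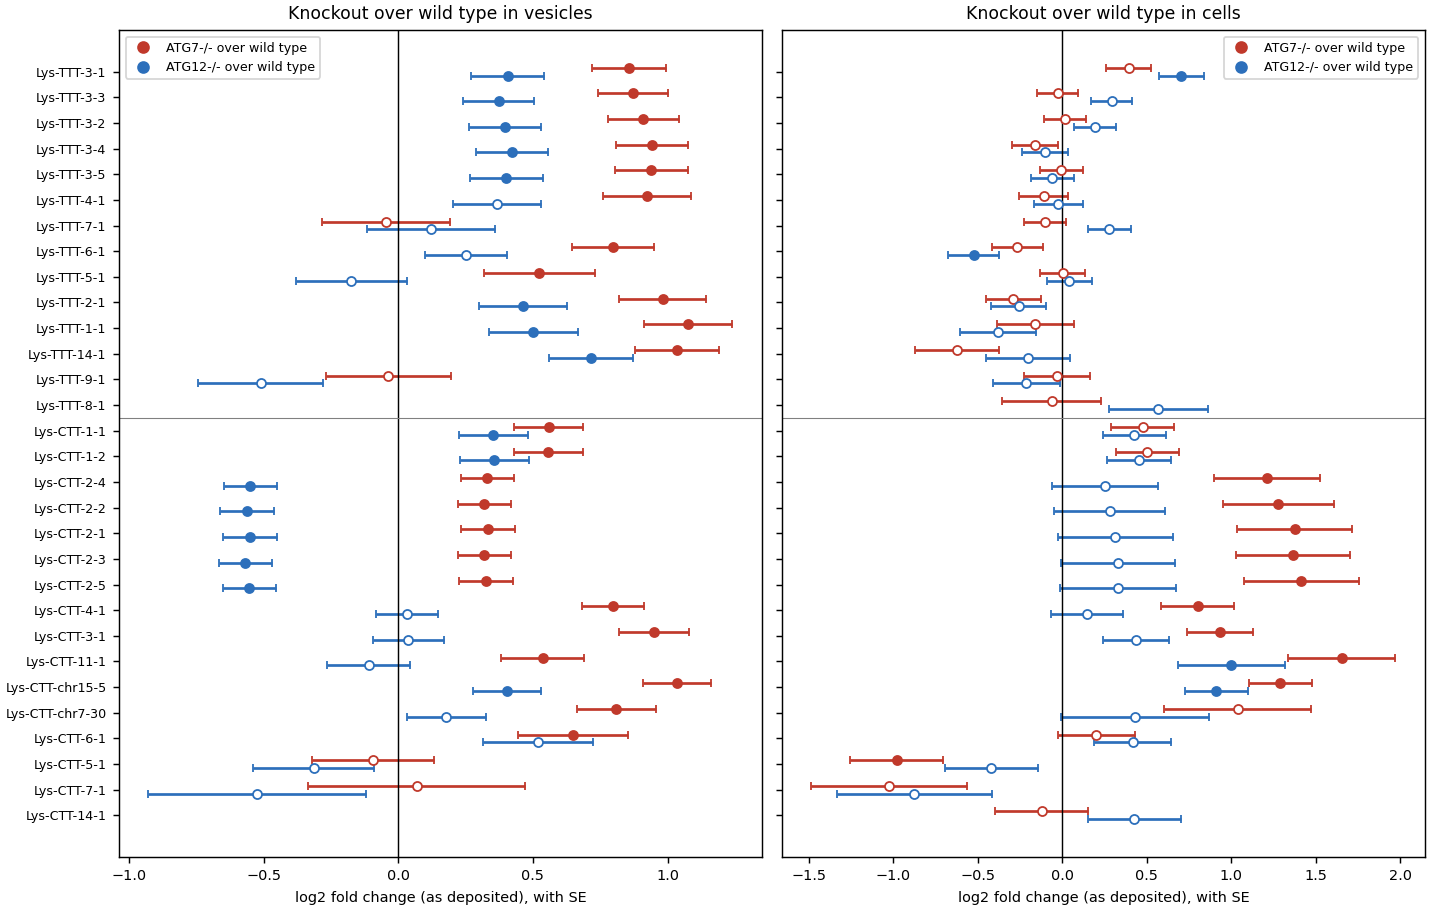
Log2 fold change with SE (x axis) of ATG7-/- (red) and ATG12-/- (blue) over wild type for each tested lysine tRNA gene (y axis, TTT above the line, CTT below), in vesicles (left) and cells (right); filled points passed an adjusted p of 0.05. In vesicles the CTT-2 copies are higher in ATG7-/- and lower in ATG12-/-, and in cells the CTT-2 copies are higher in ATG7-/-, with wide errors.

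Both knockouts share the wild type libraries as control, and each knockout's change in vesicles was set against its change in cells. For ATG7-/- the difference between the vesicle change and the cell change was positive for 10 of 14 TTT genes and 1 of 16 CTT genes and negative for 6 CTT genes, against 26.3% positive and 28.7% negative among 905 features. For ATG12-/- it was positive for 5 TTT genes and negative for 1 CTT gene, against 14.4% and 12%. Among 459 other tRNA genes it was positive for 217 and negative for 11 in ATG7-/-, and for 73 and 24 in ATG12-/-. The medians in ATG7-/- were 0.92 for lysine TTT, -0.12 for lysine CTT and 0.66 for other tRNA genes. In ATG12-/- they were 0.30, -0.45 and 0.25. The 6 negative genes for ATG7-/- were CTT-11-1 and the CTT-2 copies, and their number was 0 without ATG7-/- cell replicate 2, wild type cell replicate 3 or wild type vesicle replicate 1 and 2 without ATG7-/- vesicle replicate 3. With library totals 5 TTT genes were positive for ATG7-/- and none for ATG12-/-, and with TMM and edgeR 9 and 9 for ATG7-/- and none for ATG12-/-, where 9 genes, 8 of them CTT, were negative with either. For ATG12-/- the positive count was 1 without ATG12-/- vesicle replicate 3, and it was 2 or 3 without 8 further libraries.

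Lysine TTT was also set beside a chosen list of other tRNAs whose wobble uridine Elongator modifies: glutamine TTG, glutamate TTC and arginine TCT. Lysine CTT was set beside their partners with a wobble cytidine, glutamine CTG, glutamate CTC and arginine CCT. In wild type vesicles against cells 19 of 26 non-lysine genes with the wobble uridine were higher and 2 lower (median log2 fold change 1.52), and 23 of 31 partners were higher and 5 lower (2.45). The lysine medians of -0.15 for TTT and 1.59 for CTT were both below those of the matching list. The lists were uneven, with glutamate highest: 3.62 for glutamate TTC, 0.76 for arginine TCT and 0.095 for glutamine TTG. The partners had 4.52 for glutamate CTC, 1.86 for glutamine CTG and 1.23 for arginine CCT. Lysine CTT thus lay above arginine CCT. In ATG7-/- vesicles 18 of 26 and 19 of 27 were higher than in wild type and none lower at an adjusted p under 0.05 (medians 0.76 and 0.92). In ATG12-/- vesicles 9 of 26 and 9 of 27 were higher and 0 and 2 lower (medians 0.30 and 0.04). In ATG7-/- cells 0 of 20 and 1 of 29 were higher and 1 and 0 lower (medians -0.19 and -0.04), where lysine CTT had 9 of 16 higher.

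The tRNA groups whose pattern over the 6 groups was nearest to lysine CTT were leucine CAA (distance 0.42), leucine TAG (0.52), leucine AAG (0.58), glutamine CTG (0.64) and serine CGA (0.65). The measure is the Euclidean distance between centred mean log2 profiles. Nearest to lysine TTT were proline CGG (0.36), serine GCT (0.55), threonine TGT (0.55), threonine CGT (0.57) and tyrosine GTA (0.59). The distance between the lysine anticodons was 1.28, beside medians over 56 anticodon groups of 1.56 from CTT and 1.35 from TTT. All profiles come from the same 18 libraries.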

How the data were processed

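Per the labels' protocols, the 18 libraries came from a SMARTer small RNA kit (12 PCR cycles; single reads of 50 bp). The tools named in the submitters' processing notes are Bowtie2 2.3, cutadapt 2.3, DESeq2 and bedtools, with the build GRCh38 (hg38). The annotation is not given in the sources used here. The deposited values are a scaled signal: 100% were whole multiples of the smallest value in their library (tolerance 1e-06), so the deposited signal is reads divided by 1 size factor per library. Depth was 1188388 to 3382605 reads.

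Values were tested with limma 3.58.1 (R 4.3.3, moderated test with intensity trend, two-sided) on log2 (normalised reads + 1). A feature was tested when it reached 10 in 3 fitted libraries. Fits used the 9 vesicle libraries, the 9 cell libraries, or all 18 for vesicles against cells and for differences of changes. P-values were Benjamini-Hochberg adjusted over all features tested in it. Calls are adjusted p-values under 0.05. Fold changes on this scale understate those of low genes. Ratios and shares were compared by exact permutation tests. Alternatives were library totals, TMM, other filters and pseudocounts, edgeR 4.0.16 and DESeq2 1.42.0 on the recovered reads, a replicate block and leaving out each library. Only the fit of ATG7-/- against wild type vesicles was tried on simulated data, with the same spread set for all features. That trial does not cover the cell libraries or the other fits. The genes and lists were chosen with earlier results of these data known. Named are the first copies of the 4 most abundant isodecoders of each anticodon and, per comparison, the called gene with the largest fold in each direction; TTT-3-5, TTT-5-1 and the CTT-1-1 to CTT-2-1 ratio were chosen after their values were seen.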

Additional observations from a re-analysis of the deposited data

Results flagged for a closer look

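The change of a knockout in vesicles differed from its change in cells for several lysine tRNA genes, by the test of the difference itself (limma, adjusted over 905 features). In ATG7-/- the difference, vesicle change minus cell change, was positive for 11 genes and negative for 6. Among 459 other tRNA genes it was positive for 217 and negative for 11. It was 1.66 (log2) for TTT-14-1, 1.24 for TTT-1-1, 1.06 for TTT-6-1, 1.03 for TTT-4-1, 0.46 for TTT-3-1 and 0.88 for CTT-5-1. It was -1.12 for CTT-11-1, -1.05 for CTT-2-3 and -1.04 for CTT-2-1. In ATG12-/- it was positive for 5 genes and negative for 1: 0.92 for TTT-14-1, 0.88 for TTT-1-1, 0.78 for TTT-6-1 and -1.11 for CTT-11-1. Among the other tRNA genes it was positive for 73 and negative for 24 in ATG12-/-. Without ATG7-/- cell replicate 2, CTT-2-1 was -0.56 (adjusted p = 0.0909) and CTT-11-1 -0.83 (adjusted p = 0.0718) in ATG7-/-. For ATG12-/-, TTT-6-1 held without any 1 library and ended with library totals (0.19, adjusted p = 0.543), TMM (0.46, adjusted p = 0.124) and edgeR (0.45, adjusted p = 0.108). TTT-14-1 ended without ATG12-/- vesicle replicate 3 (0.79, adjusted p = 0.0558) or wild type cell replicate 1 (0.78, adjusted p = 0.0553), and with library totals (0.34, adjusted p = 0.38), TMM (0.61, adjusted p = 0.113) and edgeR (0.63, adjusted p = 0.0894). CTT-11-1 ended with no low value filter (adjusted p = 0.0799) and without each of 8 single libraries (adjusted p 0.0513 to 0.112). TTT-1-1 ended with library totals, TMM, edgeR and no low value filter (adjusted p 0.078 to 0.498) and without each of 8 single libraries (adjusted p 0.0578 to 0.0974). For ATG7-/-, TTT-3-1 ended with library totals, TMM, edgeR and no low value filter (adjusted p 0.113 to 0.988) and without each of 9 single libraries (adjusted p 0.0557 to 0.103). CTT-5-1 ended with those settings and DESeq2 (adjusted p 0.122 to 0.357) and without each of 10 single libraries (adjusted p 0.0506 to 0.163). With library totals TTT-1-1 (0.77, adjusted p = 0.053) and TTT-4-1 (0.57, adjusted p = 0.0535) ended, and with no low value filter CTT-2-1 (adjusted p = 0.0664) and CTT-2-3 (adjusted p = 0.0623).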

How the results depend on the processing

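With library totals wild type vesicles against cells gave 5 higher and 17 lower calls (16 and 9 as reported), ATG7-/- vesicles 14 higher (24), ATG12-/- vesicles 0 higher and 9 lower (11 and 5), ATG7-/- cells 0 lower (1), ATG12-/- cells 8 higher and 0 lower (3 and 1), and the differences between vesicle and cell changes 5 positive in ATG7-/- (11) and 0 positive and 12 negative in ATG12-/- (5 and 1). Other settings that moved a count by over 1.5 times, or to 0, were these. A minimum of 50 gave 5 lower in wild type vesicles and 0 lower in ATG7-/- cells. DESeq2 gave 7 higher in ATG12-/- vesicles and 9 higher and 0 lower in ATG12-/- cells. edgeR gave 0 lower in ATG7-/- cells, and edgeR and TMM each gave 7 higher and 0 lower in ATG12-/- cells and 0 positive and 9 negative differences in ATG12-/-. No low value filter gave 1 negative difference in ATG7-/- and 2 positive and 0 negative in ATG12-/-. The reported calls of named genes were followed over combinations of gene, comparison and setting. They kept direction and side of the threshold in 751 combinations and lost the call in 143. Genes without a reported call are not in this count. Direction turned in 7, all with library totals: CTT-1-1 (-0.30), CTT-4-1 (-0.48) and TTT-4-1 (-0.63) in wild type vesicles against cells, CTT-2-1 (-0.044) and CTT-2-3 (-0.057) in ATG7-/- vesicles, CTT-1-1 (-0.0028) in ATG12-/- vesicles and TTT-3-1 (-0.0033) in the ATG7-/- difference. The share of higher calls over all features was 47.6% with the deposited scaling and 19.4% with library totals for wild type vesicles against cells, 53.7% and 31.9% for ATG7-/- vesicles, 51.8% and 22.1% for ATG12-/- vesicles, 50.3% and 62.2% for ATG7-/- cells, 29.2% and 62.7% for ATG12-/- cells, 47.8% and 17.9% for the ATG7-/- difference and 54.4% and 6.94% for the ATG12-/- difference. With TMM it was 52.2% for ATG12-/- cells, 34.4% for the ATG7-/- and 20.9% for the ATG12-/- difference. The cause of these shifts was not tested.

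With the replicate number as a block, ATG12-/- vesicles gave 3 higher calls in place of 11, and no other count of lysine genes moved by over 1.5 times. Whether the numbers pair the samples was not settled. In no comparison did all 3 same-numbered pairs correlate above 0.1 across features (-0.225 to 0.158). With 3 pairs, and no differently numbered pairs beside them, this check cannot exclude pairing. For ATG12-/- against wild type vesicles the correlations were 0.144, 0.0907 and 0.0947.

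Leaving out each library in turn gave, for higher and lower calls, 16 and 8 to 9 in wild type vesicles against cells, 18 to 24 and 0 in ATG7-/- vesicles, 1 to 10 and 5 to 6 in ATG12-/- vesicles, 0 and 14 to 20 between the knockout vesicles, 3 to 11 and 0 to 2 in ATG7-/- cells, and 2 to 3 and 0 to 1 in ATG12-/- cells. The differences of changes gave 9 to 11 positive and 0 to 7 negative in ATG7-/- and 1 to 6 and 0 to 1 in ATG12-/-. The log2 ratio of CTT to TTT reads ranged over 1.77 to 1.95, -0.51 to -0.40, -0.71 to -0.44, -0.27 to 0.0064 (ATG12-/- against ATG7-/- vesicles), 0.75 to 1.37 and 0.03 to 0.23 for the 6 comparisons in the order given. The depth of 1 read per 0.477 to 1.89 normalised reads leaves the 14 genes under the filter without a test.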

Other observations

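The abundant CTT isodecoders did not keep 1 ratio. This ratio was chosen after its values were seen and has no test. CTT-1-1 over CTT-2-1 was 0.919 to 1.36 in wild type vesicles, 1.14 to 1.52 in ATG7-/- vesicles and 2.01 to 2.45 in ATG12-/- vesicles. In cells it was 1.71 to 1.85 in wild type, 0.371 to 1.71 in ATG7-/- and 1.54 to 2.25 in ATG12-/-. With each isodecoder counted once, CTT-1 made up 42.2% of CTT reads in wild type vesicles and 53.3% in ATG12-/- vesicles, and CTT-2 36.3% and 24.4%. CTT-11 made up 4.79% of CTT reads in wild type vesicles, against 1.45% in the wild type cells.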
